A study of Caenorhabditis elegans with 11 samples.

Results

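The 9 fatty acid elongase genes elo-1 to elo-9 of Caenorhabditis elegans were followed across worms given 1 of 3 betalains and worms given none. They were taken by gene symbol from the authors' annotation of the array, where each symbol had 1 transcript cluster (the set of probes read as 1 gene), out of 26744 named genes in all. In RefSeq (WBcel235) they are the loci F56H11.4 (elo-1), F11E6.5 (elo-2), D2024.3 (elo-3), C40H1.4 (elo-4), F41H10.7 (elo-5), F41H10.8 (elo-6), F56H11.3 (elo-7), Y47D3A.30 (elo-8) and Y53F4B.2 (elo-9). All arrays came from whole wild-type N2 animals, the standard laboratory strain, labelled as young adults of 3 days after hatching and kept at 20 °C. Treated worms received a betalain at 25 uM in liquid medium from 16 to 18 h of age for 48 h, and control worms are labelled as not treated. Betalains are plant pigments in which betalamic acid is joined to an amine or amino acid. The groups were control (2 arrays), indicaxanthin, the proline conjugate (3 arrays), phenylalanine-betaxanthin (3 arrays) and indoline carboxylic acid-betacyanin (3 arrays), for which indoline-betacyanin is written from here on. Each array is labelled as an independent trial, but the labels do not say what the trials shared, so p-values measure the spread between these arrays, which may be in part technical. The values are log2 levels, on which a difference of 1 is a doubling.

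Elongases carry out the condensing step of the cycle that lengthens a fatty acid, joining malonyl-CoA to an acyl-CoA, after which a ketoacyl reductase, a dehydratase and an enoyl reductase complete the round. Desaturases and elongases together make the polyunsaturated fatty acids of the worm, which needs none in its diet. In this nematode elo-1 acts in making the longest polyunsaturated fatty acids, elo-2 lengthens palmitic acid, and elo-5 and elo-6 make monomethyl branched-chain fatty acids, which larvae need to grow. The other members, elo-3, elo-4, elo-7, elo-8 and elo-9, carry the family's name, and no role is stated for them here.

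The arrays did not divide by treatment alone. Yolk protein genes, which the intestine of adult hermaphrodites expresses, had a mean log2 level of 1.71 and 1.56 on the control arrays and 10.01 to 10.07 on the phenylalanine-betaxanthin arrays. Indicaxanthin arrays 1 and 2 lay at 1.71 and 1.75 and array 3 of that group at 10.09, while the indoline-betacyanin arrays lay at 1.67 to 3.17. The yolk genes were thus close to the lowest levels of the array on samples that the labels call young adults. Indicaxanthin array 3 correlated at 0.990 to 0.994 with the phenylalanine-betaxanthin arrays over all clusters, and at 0.818 and 0.826 with the others of its own group. The counts of elongases called are therefore given with and without it. The pathway gene values and the likeness of profiles include it.

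Of the 9 genes, elo-4 had the widest range over the arrays, wider than 97.2% of all clusters tested. Its log2 level was 6.54 and 7.0 on the control arrays. With indoline-betacyanin it was 6.41, 6.33 and 6.42. With phenylalanine-betaxanthin it was 2.25, 2.46 and 2.26. Indicaxanthin gave both states inside 1 group: arrays 1 and 2 were at the control level or just above it, and array 3 was as low as the phenylalanine-betaxanthin arrays. The values there were 6.96, 7.12 and 2.29. By mean level the order was control, indoline-betacyanin, indicaxanthin and phenylalanine-betaxanthin, but the indicaxanthin mean of 5.46 (SD 2.74, n = 3) describes none of its arrays. Without array 3 that mean was 7.04 (SD 0.11, n = 2) and stood first, overlapping the controls.

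The genes elo-7 and elo-8 showed the opposite pattern, low on the controls and high with phenylalanine-betaxanthin. For elo-7 the control arrays stood at 2.17 and 2.00 and the phenylalanine-betaxanthin arrays at 3.89, 4.60 and 4.61. With indoline-betacyanin it stood at 1.42, 1.43 and 1.42. These last arrays lay below both controls, and they were also under 1.523, the level that the 25th percentile of named clusters sets as the limit for testing. On the indicaxanthin arrays elo-7 was at 1.58, 1.52 and 3.98, so array 3 again joined the phenylalanine-betaxanthin arrays, within the range of which it lay. For elo-8 the levels were 1.53 and 1.43 on the controls, 1.31, 1.56 and 1.36 with indoline-betacyanin, and 3.15, 3.36 and 2.99 with phenylalanine-betaxanthin. Indicaxanthin gave 1.43, 1.43 and 3.73, the last being the highest elo-8 level of all arrays. The control and indoline-betacyanin arrays of elo-8 averaged 1.44, under the limit for testing, so this gene was tested only because other arrays were high. For elo-7 that average was 1.69, just above the limit. No detection call was used here, and low values of these genes may lie at the floor of the array. Their differences below are differences of the deposited values, with no fold computed here. The authors' ratios for them, given further on, carry the same limit. The gene elo-8, which had to differ in order to be tested, supports no count: counts of calls that hold it are given without it as well.

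The branched-chain genes elo-5 and elo-6 moved by less, and in the same direction as elo-4. On the control arrays elo-5 stood at 9.53 and 9.58. The indoline-betacyanin arrays were at 9.11, 9.22 and 9.13, and the phenylalanine-betaxanthin arrays at 8.69, 8.55 and 8.44. The groups were separate, in the order control, indoline-betacyanin, phenylalanine-betaxanthin. On the indicaxanthin arrays elo-5 was at 9.37, 9.55 and 8.47, which spans nearly this whole range. For elo-6 the controls were at 10.59 and 10.76 and the phenylalanine-betaxanthin arrays at 10.04, 9.92 and 9.77. Indoline-betacyanin gave 10.53, 10.64 and 10.46, and indicaxanthin 10.55, 10.57 and 10.02. The indoline-betacyanin arrays overlapped the controls, indicaxanthin arrays 1 and 2 lay just under both controls, and the remaining arrays lay below all of these. In the reference gene order (RefSeq, WBcel235) 3 protein-coding genes separate elo-5 from elo-6, and their profiles over the 11 arrays were among the most alike of the family. After centring each gene on its mean the root mean square difference between the pair was 0.157.

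**Figure D1:**
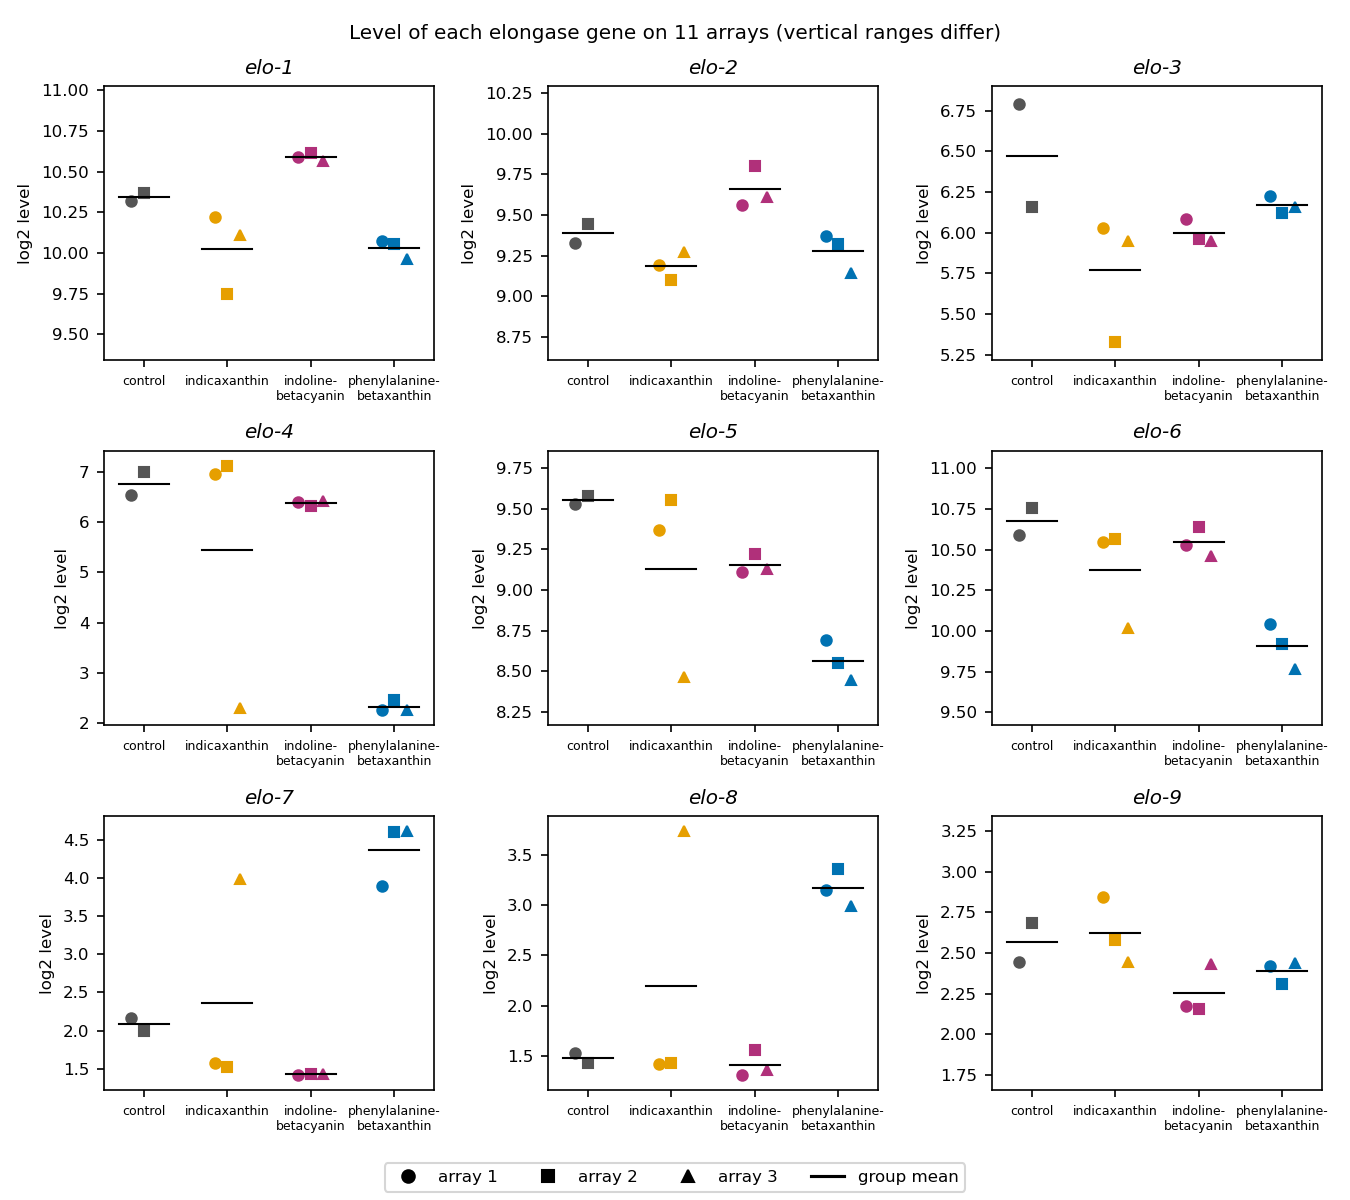
Log2 level of each elongase gene (vertical axes, with different ranges) on each of the 11 arrays, by group; symbols mark array numbers and lines the group means. For elo-4, elo-5, elo-6, elo-7 and elo-8, indicaxanthin array 3 (triangle) lies with the phenylalanine-betaxanthin arrays, as at 2.29 against 2.25 to 2.46 for elo-4, and for elo-1 the indoline-betacyanin arrays are the highest.

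The genes elo-1 and elo-2 were highest with indoline-betacyanin. The elo-1 level was 10.59, 10.62 and 10.56 there, and 10.32 and 10.37 on the controls. With phenylalanine-betaxanthin it was 10.07, 10.06 and 9.96. Indicaxanthin gave 10.22, 9.75 and 10.11, so all arrays of both betaxanthins were below both controls and all indoline-betacyanin arrays above them. For elo-2 the indoline-betacyanin arrays were at 9.56, 9.80 and 9.61 and the controls at 9.33 and 9.44. Phenylalanine-betaxanthin gave 9.37, 9.32 and 9.14, and indicaxanthin 9.19, 9.10 and 9.27. For this gene the control and phenylalanine-betaxanthin arrays overlapped, as did those of the betaxanthins. Their profiles were the closest pair of the family, with a root mean square difference of 0.127 over the 11 arrays. The genes elo-1 and elo-7 are direct neighbours in the reference gene order, with 0 protein-coding genes between them, and their profiles differed by 1.46 on the same measure.

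The remaining genes, elo-3 and elo-9, followed neither pattern. For elo-3 the controls differed from each other, at 6.79 and 6.16. Phenylalanine-betaxanthin gave 6.22, 6.12 and 6.16, and indoline-betacyanin 6.08, 5.96 and 5.95. Indicaxanthin gave 6.03, 5.33 and 5.95, with array 2 and not array 3 apart from the rest. The groups ran from control through phenylalanine-betaxanthin and indoline-betacyanin to indicaxanthin, and the steps from control to phenylalanine-betaxanthin and from indoline-betacyanin to indicaxanthin lay within the spread. For elo-9 the range over all arrays was only 0.69, at levels that may lie near the floor of the array. Its levels were 2.44 and 2.69 on the controls and 2.84, 2.58 and 2.44 with indicaxanthin. They were 2.42, 2.31 and 2.44 with phenylalanine-betaxanthin and 2.17, 2.15 and 2.43 with indoline-betacyanin, so the order of means was indicaxanthin, control, phenylalanine-betaxanthin, indoline-betacyanin. Neighbours in it overlapped or lay next to each other, and all indoline-betacyanin arrays were below both controls.

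With phenylalanine-betaxanthin 5 of the 9 elongases differed from control, 2 higher and 3 lower, by limma with Benjamini-Hochberg adjustment over all 20291 clusters tested. In this comparison 44.6% of all clusters were called, 22.3% higher and 22.3% lower, so the share of elongases was near that of the array as a whole. Without elo-8 the count was 4 of 8. The gene elo-4 fell by 4.45 on the log2 scale (SE 1.195, 95% confidence interval -7.15 to -1.74, adjusted p = 0.0217), a level 21.8-fold lower, and 1.81% of clusters moved further in either direction. The treated arrays had elo-4 at 2.25 to 2.46, not far above the elo-7 controls at 2.00 and 2.17. That fold may therefore rest on values at the floor of the array. The genes elo-7 and elo-8 rose, elo-7 by 2.28 (SE 0.64, adjusted p = 0.0239) and elo-8 by 1.68 (SE 0.59, adjusted p = 0.0456), the latter from control values near or under the limit for testing. The branched-chain genes fell, elo-5 by 0.99 (SE 0.28, adjusted p = 0.0239) and elo-6 by 0.76 (SE 0.19, adjusted p = 0.0186). Changes of that size were common, since 38.2% and 46.1% of clusters moved further than elo-5 and elo-6. In each of these 5 genes all 3 treated arrays lay outside the range of the controls. Groups did not overlap for 7 of the 9 elongases and for 75.4% of all clusters. The 7 include elo-8, which had to differ in order to be tested.

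The genes not called in that comparison were elo-1 (log2 difference -0.31, 95% confidence interval -0.66 to 0.03), elo-2 (-0.11, -0.42 to 0.20), elo-3 (-0.31, -0.85 to 0.24) and elo-9 (-0.17, -0.54 to 0.19). The median difference of the 9 genes was -0.31, beside -0.05 for all clusters tested. Without indicaxanthin array 3, which entered only through the spread, the same 5 genes (4 of 8 without elo-8) were called with SE between 0.13 and 0.20 (adjusted p = 1.57e-09 for elo-4 and 0.000435 for elo-6), and 61% of all clusters were. The calls depended on each of the controls: without control array 1 or 2 the count was 0, with adjusted p from 0.0901 to 0.163. It was also 0 without phenylalanine-betaxanthin array 2, with elo-6 nearest at 0.0525, and 1 without array 1 or array 3 of that group, that gene being elo-6. The call of elo-8 also ended without any 1 of the indoline-betacyanin arrays (adjusted p from 0.0657 to 0.0669) and with no filter on dim clusters (0.0579). The 5 differences kept their directions with each array left out in turn, elo-4 between -4.67 and -4.22.

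Markers of other tissues moved with this comparison, and their part in the elongase results was not tested. All phenylalanine-betaxanthin arrays and neither control had high yolk and germ-line levels, so treatment and marker state cannot be told apart here. The 12 oocyte and eggshell genes had a mean level of 8.59 to 8.77 with phenylalanine-betaxanthin and 2.28 and 2.76 on the controls, the 10 sperm genes 5.31 to 5.53 against 2.06 and 2.23, and the 8 germ-line genes 6.14 to 6.21 against 1.89 and 2.15. The 10 moulting genes ran the other way, at 4.55 to 5.14 against 6.77 and 6.83. The 8 neuronal genes were at 4.38 to 4.59 against 5.51 and 5.64, and the 10 intestinal genes at 7.41 to 7.49 against 8.14 and 8.34. In whole worms, fewer cells of a type and less RNA per cell cannot be told apart.

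Within the indicaxanthin group the same genes separated array 3 from arrays 1 and 2. The level of elo-4 on array 3 was 4.75 lower than the mean of arrays 1 and 2, a log2 difference of -4.75, beside -4.45 for the mean of phenylalanine-betaxanthin against control. For elo-5 these differences were -0.99 and -0.99, and for elo-6 -0.54 and -0.76. For elo-7 they were 2.43 and 2.28, and for elo-8 2.30 and 1.68. The arrays in the pair of differences are not shared, and the first is a description of 1 array with no test. The sign matched for 6 of the 9 elongases, among them elo-8, which supports no count, and for 84.0% of all clusters tested. It did not match for elo-1 (0.12 against -0.31), elo-2 (0.12 against -0.11) and elo-3 (0.27 against -0.31). Germ-line genes (6.26 on array 3 against 2.05 and 2.10) and moulting genes (4.31 against 6.74 and 6.36) differed between these arrays of 1 treatment as well.

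**Figure D2:**
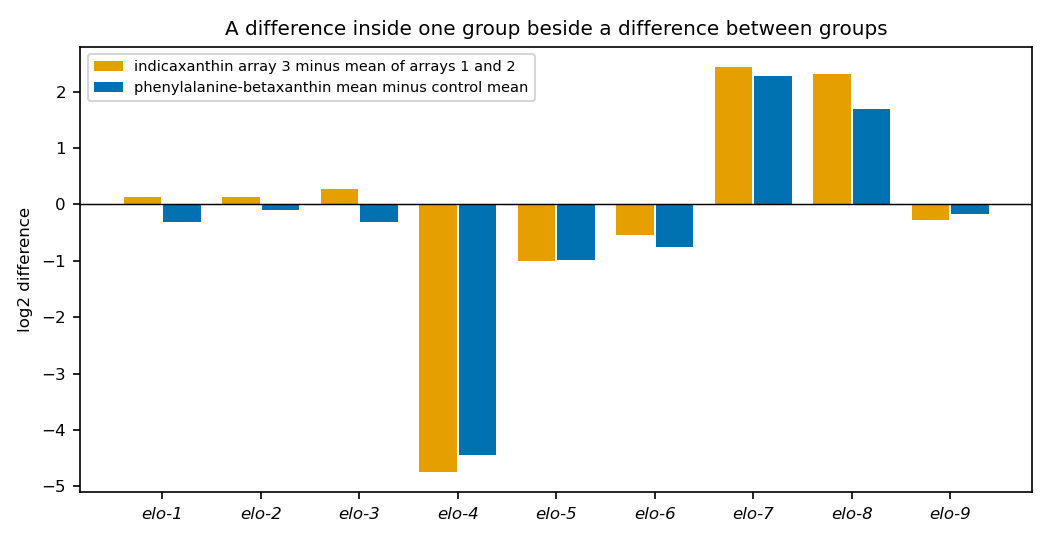
Log2 differences of each elongase gene: indicaxanthin array 3 minus the mean of arrays 1 and 2 of the same treatment, and the mean of phenylalanine-betaxanthin minus the mean of control. The bars are of like size and sign for elo-4 (-4.75 and -4.45), elo-5 and elo-7, and opposite in sign for elo-1, elo-2 and elo-3.

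The authors' deposited tables bear on the control level of these genes. For phenylalanine-betaxanthin the authors' deposited table gives elo-4 a ratio of treated over control of 0.140 with an unadjusted p of 0.153, elo-7 a ratio of 2.58 with p = 0.0993 and elo-8 a ratio of 2.29 with p = 0.186. Ratios in the authors' deposited table were 0.647 for elo-5 (p = 0.163) and 0.688 for elo-6 (p = 0.110), and none of the 9 genes had a p under 0.05. The sums of squares of that table match 3 arrays per group, 1 control more than is analysed here. A level for the third control follows from the ratio, if the other arrays entered with the values given here. By the authors' deposited tables for indoline-betacyanin and for phenylalanine-betaxanthin in turn, the third control had elo-4 at 2.16 or 1.94, beside 6.54 and 7.0 on the control arrays. It had elo-7 at 4.02 or 4.84 and elo-8 at 3.16 or 2.95, so both genes were far above control arrays 1 and 2. For elo-5 it stood at 8.30 or 8.47 and for elo-6 at 9.78 or 9.998. For all 5 genes these values lay near or within the range of the phenylalanine-betaxanthin arrays, and for yolk protein genes the implied mean was 10.09 or 10.22. The same held for elo-1 (9.91 or 10.04), elo-2 (9.25 or 9.21) and elo-9 (2.47 or 2.39). For elo-3 the third control, at 5.96 or 5.92, lay below the phenylalanine-betaxanthin arrays and below control arrays 1 and 2. Among the elongases the estimates from the tables differed most for elo-7, by 0.81.

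With indoline-betacyanin 0 of the 9 elongases were called against control by limma with all 11 arrays, and 0 had an unadjusted p under 0.05. In this comparison 17.3% of all clusters were called. Groups did not overlap for 7 of the 9 genes, 2 higher and 5 lower, and for 60.3% of all clusters, 31.1% higher and 29.2% lower. The polyunsaturated fatty acid gene elo-1 was above both controls on all 3 arrays by 0.25 (SE 0.15, 95% confidence interval -0.10 to 0.59, adjusted p = 0.358). The difference for elo-2 was 0.27 (SE 0.14, -0.04 to 0.58, adjusted p = 0.242). The intervals of elo-4 (-3.09 to 2.32), elo-7 (-2.11 to 0.80) and elo-8 (-1.41 to 1.27) were wide, since indicaxanthin array 3 stands in the shared estimate of the spread. Without that array elo-5 fell by 0.40 (SE 0.13, adjusted p = 0.035) and elo-7 by 0.66 (SE 0.20, adjusted p = 0.025), in a comparison with 35.4% of all clusters called (18.2% lower), and elo-4 had a difference of -0.38 (adjusted p = 0.0796).

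For indoline-betacyanin the authors' deposited table lists elo-1 at a ratio of 1.31 (unadjusted p = 0.0105), elo-2 at 1.24 (p = 0.0355) and elo-9 at 0.823 (p = 0.0449). The other 6 genes had a p above 0.05 in the authors' deposited table, with elo-4 at a ratio of 2.22 (p = 0.501), which runs against the difference of -0.38 from control arrays 1 and 2. Worked out from the authors' deposited tables, the third control had elo-1 at 9.91 or 10.04 and elo-2 at 9.25 or 9.21. Control arrays 1 and 2 were higher than that, at 10.32 and 10.37 for elo-1 and 9.33 and 9.44 for elo-2. All of these lay below the treated arrays. Since the third control was computed from the authors' ratios, its lower level restates those ratios and is no separate support for them. Tissue markers differed here too, with intestinal genes at 7.09 to 7.15 against 8.14 and 8.34 on the controls and neuronal genes at 6.26 to 6.33 against 5.51 and 5.64. Their part in the result was not tested.

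With indicaxanthin 0 of the 9 elongases were called against control by limma (1 at an unadjusted p under 0.05, elo-3), while 6.2% of all clusters were. The difference of elo-3 was -0.70 (SE 0.24, 95% confidence interval -1.25 to -0.16, adjusted p = 0.17), with all 3 arrays under both controls. Groups did not overlap for 4 of the 9 genes, all lower, beside 14.9% of all clusters that were lower in this way. Without array 3 the count was also 0 (2 at an unadjusted p under 0.05, elo-3 and elo-7), with 10.5% of all clusters called. The difference of elo-3 was then -0.80 (SE 0.24, adjusted p = 0.0609). For elo-4 the difference was -1.31 (SE 1.195) with array 3 and 0.27 (SE 0.17) without it, and for elo-7 it was 0.28 (SE 0.64) and -0.54 (SE 0.22). For elo-8 it was 0.71 (SE 0.59) and -0.053 (SE 0.16). The authors' deposited table for indicaxanthin lists only clusters with p under 0.05, and elo-7 is the 1 elongase in it, at a ratio of 0.651 (unadjusted p = 0.0469). That ratio matches the direction found without array 3, and the sums of squares of the table match 2 arrays per group. Indicaxanthin arrays 1 and 2 had elo-7 at 1.58 and 1.52, near the limit for testing.

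**Figure D3:**
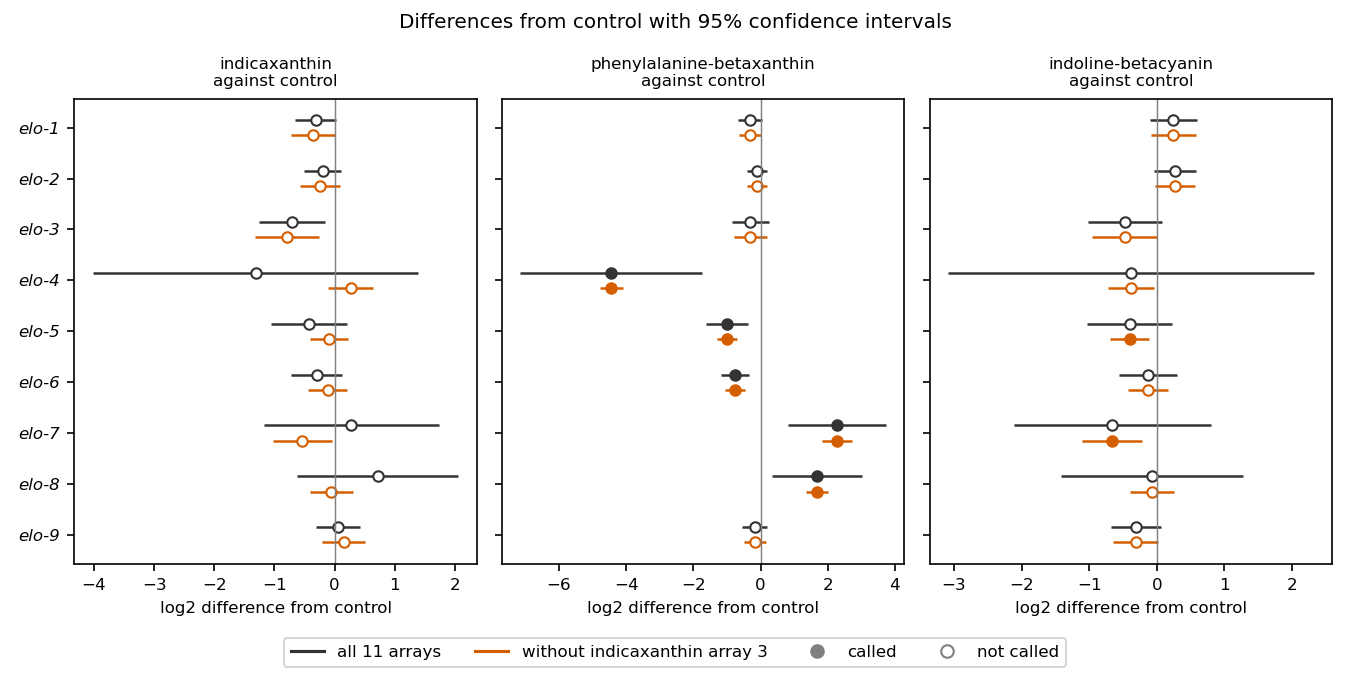
Log2 differences of the 9 elongase genes from control for each betalain, with 95% confidence intervals by limma, with all 11 arrays and without indicaxanthin array 3; filled points have an adjusted p under 0.05. Without that array the intervals of elo-4, elo-7 and elo-8 narrow, as from -7.15 to -1.74 down to -4.79 to -4.10 for elo-4 with phenylalanine-betaxanthin.

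The 3 betalains were given at the same dose and for the same time, and were compared in 3 pairs. Indoline-betacyanin differed from phenylalanine-betaxanthin in 6 of the 9 elongases, 4 higher and 2 lower, beside 47.3% of all clusters called, 23.5% higher and 23.8% lower. The gene elo-1 was higher by 0.56 (SE 0.14, adjusted p = 0.00996), or 1.47-fold, and stayed called with each array left out. The gene elo-2 was higher by 0.38 (SE 0.12, adjusted p = 0.03), elo-6 by 0.63 (SE 0.17, adjusted p = 0.0137) and elo-4 by 4.06 (SE 1.07, adjusted p = 0.0134). The genes elo-7 (-2.94, SE 0.57, adjusted p = 0.00454) and elo-8 (-1.75, SE 0.53, adjusted p = 0.0236) were lower, with indoline-betacyanin values near or under the limit for testing. Without elo-8 the count was 5 of 8. For elo-5 the difference was 0.59 (95% confidence interval 0.02 to 1.154, adjusted p = 0.0812), and it was called without indicaxanthin array 3 (SE 0.12, adjusted p = 0.000984), when 7 of the 9 (6 of 8 without elo-8) were called beside 59% of all clusters. Without phenylalanine-betaxanthin array 3 the count was 3, being elo-1, elo-4 and elo-7. The call of elo-2 ended without indoline-betacyanin array 2 or 3 or phenylalanine-betaxanthin array 2 or 3 (adjusted p from 0.0606 to 0.107) and after further quantile normalization (0.151). That of elo-8 ended without any 1 of the arrays of either group (adjusted p from 0.0503 to 0.0715).

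Against indicaxanthin, indoline-betacyanin gave 2 elongases higher and 0 lower by limma, beside 14.2% of all clusters called, 9.78% higher and 4.42% lower. They were elo-1, higher by 0.56 (SE 0.14, adjusted p = 0.0254), and elo-2, higher by 0.47 (SE 0.12, adjusted p = 0.0335). The groups did not overlap for 4 of the 9 elongases, elo-1 and elo-2 being higher with indoline-betacyanin and elo-7 and elo-9 lower. The share of all clusters is not given for this comparison, so that count supports no reading. For elo-1 and elo-2 the differences from the 2 controls were not called. Without indicaxanthin array 3 the count was 4, beside 27.8% of all clusters, 14.4% higher and 13.5% lower: elo-1 by 0.60, elo-2 by 0.51, and elo-4 (-0.65, SE 0.16, adjusted p = 0.00878) and elo-9 (-0.46, SE 0.15, adjusted p = 0.0398) lower. The elo-4 difference had been 0.93 (SE 1.07) with that array. For elo-9 the levels of both groups may lie near the floor of the array. These calls rested on few arrays: without any 1 of the 3 indoline-betacyanin arrays the count was 0, with adjusted p from 0.0629 to 0.122. Without control array 1 or 2, indicaxanthin array 1 or 2, or phenylalanine-betaxanthin array 1 or 2 it was 1, elo-1.

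The pair of betaxanthins, phenylalanine-betaxanthin against indicaxanthin, gave 0 calls by limma among the elongases (4 at an unadjusted p under 0.05) and 0% among all clusters. Without indicaxanthin array 3 it gave 5, 2 higher and 3 lower, beside 55.1% of all clusters, 26.6% higher and 28.5% lower: elo-4 lower by a log2 difference of -4.71 (SE 0.16), elo-5 at -0.90 (SE 0.13) and elo-6 at -0.65 (SE 0.14), with elo-7 higher by 2.82 (SE 0.20) and elo-8 by 1.74 (SE 0.15). Indicaxanthin arrays 1 and 2 had elo-8 under the limit for testing, and without this gene the count was 4 of 8. The largest adjusted p among them was 0.00159, for elo-6. Array 3 was left out because it resembled the phenylalanine-betaxanthin arrays, the group compared here. These calls thus follow in part from that choice and stand as description only. For elo-1 the difference between the betaxanthins was 0.00 with a 95% confidence interval of -0.30 to 0.31 with all arrays, and 0.04 (-0.29 to 0.37) without array 3. For elo-2 it was 0.09 (-0.18 to 0.36) with all arrays and 0.13 (-0.17 to 0.43) without array 3.

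Genes around the elongases were read from 5 lists, the desaturases, the partner enzymes and supply of the elongation cycle, the makers of branched-chain precursors, enzymes of sphingolipid synthesis, and regulators. With phenylalanine-betaxanthin against control, 3 of 5 elongation partners fell and 0 rose by limma (median log2 difference -0.76), beside 22.3% of all clusters lower and 22.3% higher. They were hpo-8, the dehydratase of the cycle (-0.91, SE 0.23), let-767, its ketoacyl reductase (-0.76, SE 0.23), and art-1, an enoyl reductase (-0.53, SE 0.16). Of 7 desaturases 2 fell and 0 rose (median -0.39): fat-5, which acts on palmitic acid (-1.62, SE 0.51), and fat-6, which acts on stearic acid (-0.56, SE 0.17). Of 6 genes for branched-chain precursors 1 rose and 1 fell. The acyl-CoA synthetase gene acs-1 was at -1.29 (SE 0.30) and the keto acid dehydrogenase subunit gene bckd-1B at 0.70 (SE 0.25). Of 9 regulators 2 rose and 4 fell, among them the nuclear receptor genes nhr-49 (-0.61, SE 0.16) and nhr-80 (-1.58, SE 0.46) and the acyl-CoA dehydrogenase gene acdh-11 (-1.28, SE 0.36). Of 6 sphingolipid genes 1 rose, the ceramide synthase gene hyl-1 (1.11, SE 0.37), and 0 fell. With 44.6% of all clusters called, several of these shares were near or under that of the array.

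With indoline-betacyanin against control 1 of 5 partners was higher and 0 lower (median 0.21), in a comparison where 17.3% of all clusters were called. That gene was fasn-1, the fatty acid synthase (1.32, SE 0.31, adjusted p = 0.0169). Of the desaturases 1 rose, fat-3, an enzyme of polyunsaturated fatty acid synthesis (1.07, SE 0.20, adjusted p = 0.00509), and 1 fell, fat-7, a stearic acid desaturase (-2.16, SE 0.19, adjusted p = 9.08e-05). The gene acs-1 fell by 1.59 (SE 0.30, adjusted p = 0.00593), 1 of 6 in its list, and sptl-3, a serine palmitoyltransferase gene, rose by 0.89 (SE 0.17), also 1 of 6. None of the 9 regulators was called by limma (0, and 0 at an unadjusted p under 0.05). With indicaxanthin 0 genes of any of the 5 lists were called by limma, and at an unadjusted p under 0.05 there were 0 desaturases, 1 partner, 1 precursor gene, 0 sphingolipid genes and 1 regulator. Without indicaxanthin array 3, 61% of all clusters were called with phenylalanine-betaxanthin, 5779 higher and 6601 lower of 20291. That comparison gave 4 of 7 desaturases and 4 of 5 partners lower and 0 higher. It then gave 2 precursor genes higher and 1 lower, 1 sphingolipid gene higher and 1 lower, and 3 regulators higher and 4 lower. Without that array 35.4% of all clusters were called with indoline-betacyanin, 3472 higher and 3701 lower of 20291. This betalain gave 2 of 5 partners higher and 0 lower, and 1 of 7 desaturases higher and 2 lower. Its other counts were 0 precursor genes higher and 2 lower, 2 sphingolipid genes higher and 1 lower, and 1 regulator higher and 1 lower. Indicaxanthin gave 0 in all 5 lists by limma without it as well, with 1 partner and 1 regulator at an unadjusted p under 0.05. Phenylalanine-betaxanthin and indoline-betacyanin were each set against the same 2 controls, so their values are not independent.

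**Figure D4:**
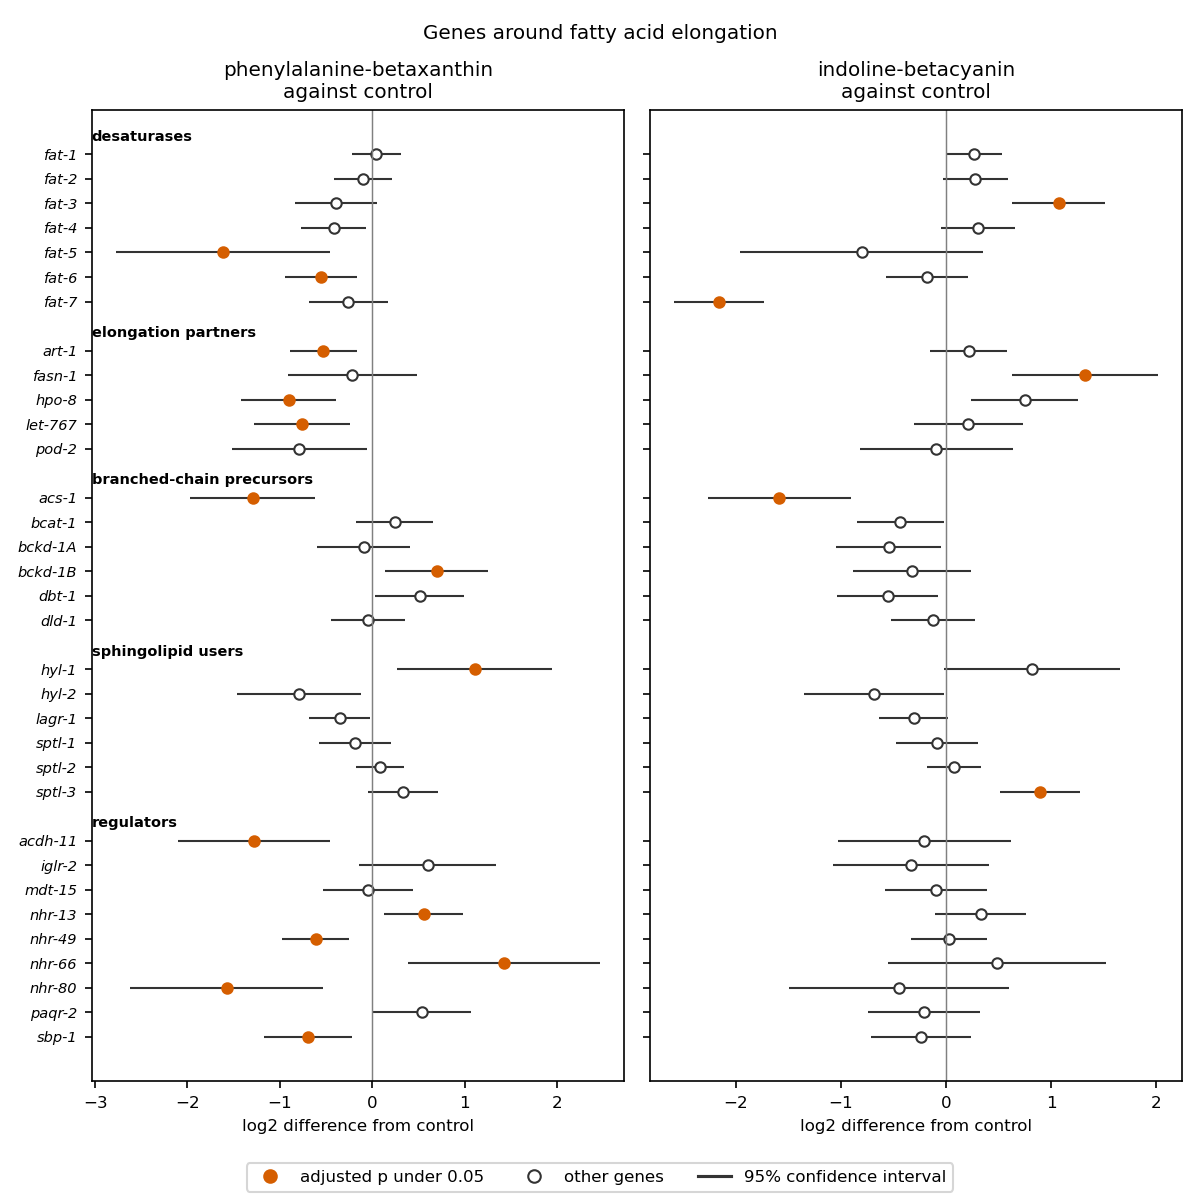
Log2 differences from control, with 95% confidence intervals by limma over all 11 arrays, of the genes in 5 lists around fatty acid elongation; filled points have an adjusted p under 0.05. With phenylalanine-betaxanthin the called partner enzymes lie to the left (hpo-8 at -0.91), and with indoline-betacyanin fasn-1 lies to the right at 1.32 and fat-7 to the left at -2.16.

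The genes most like each elongase were sought among 16185 other protein-coding clusters, by the root mean square difference of profiles centred on their means over the 11 arrays. For elo-4 they were gtnt-35 (0.137) and F17B5.4 (0.215), which ranged over the arrays from 1.34 to 6.32 and from 1.62 to 6.74. For elo-7 they were F25F2.1 (0.231) and dgtr-1 (0.232), of the diacylglycerol acyltransferase family, and for elo-8 kin-26 (0.117), a tyrosine kinase gene, and F12A10.8 (0.131). The branched-chain genes had mlc-3 (0.0928), a myosin light chain gene, and K08D8.5 (0.104) beside elo-5, and pfn-2 (0.0797), a profilin gene, and F46H5.3 (0.0925) beside elo-6. For elo-1 they were F14E5.2 (0.0904) and mnk-1 (0.0906), and for elo-2 arx-4 (0.0926) and Y51A2D.8 (0.0931). For elo-3 they were btb-11 (0.168) and F59D6.1 (0.179), and for elo-9 oac-17 (0.0835) and pyk-2 (0.0874). Several of these matches had low levels that may lie at the floor of the array. The levels of btb-11 ran from 1.34 to 2.68 and those of F59D6.1 from 1.27 to 2.28. Those of oac-17 ran from 1.365 to 1.795 and those of Y51A2D.8 from 1.76 to 2.40. The measure favours genes of small range beside elo-1, elo-2, elo-6 and elo-9, and for elo-4, elo-7 and elo-8 it is set mainly by the phenylalanine-betaxanthin arrays and indicaxanthin array 3.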

How the data were processed

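Per the labels' protocols, total RNA of whole worms was extracted with TRIzol, and single-stranded cDNA was made from 3.5 ng of each sample with an Affymetrix kit for labelling. The deposited matrix holds log2 values for 29317 transcript clusters on 11 arrays, and RMA is the tool that the submitters' processing notes name, with no version. The authors' deposited comparison tables hold, per the file headers, p-value columns (unadjusted), ratio columns (linear, treated to control) and score columns (signed fold, F and sums of squares). The software behind them, the array model and its annotation build are not stated in the labels or headers. The authors' gene-name column named 27055 clusters, of which 26811 matched RefSeq gene tables (WBcel235). Coordinates were not used here. Probes shared between related elongases were not checked.

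Every comparison was fitted with limma 3.58.1 in R 4.3.3 (lmFit, eBayes) of the log2 values, 1 model holding all 11 arrays and no block. Named clusters with a mean above the 25th percentile (1.523) were tested, 20291 in all, and all 9 elongases passed. P-values were adjusted by Benjamini-Hochberg over these clusters and called at 0.05. Residual degrees of freedom were 7 and prior ones 1.93, or 6 and 4.98 without indicaxanthin array 3. The script was tested on simulated data. The number of arrays limits the precision. The members, lists and tests were chosen with earlier results of these data known. The genes named are all members, up to 3 called genes with the smallest adjusted p per list and control comparison, and the 2 nearest profiles per member.

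The level of the third control was computed as 3 times the control mean implied by a table's ratio and the treated arrays, minus control arrays 1 and 2. Trial numbers did not pair the arrays: deviations from group means correlated at -0.292 to 0.101 over 15 same-numbered pairs. Alternatives were the trial as a block, no filter, further quantile normalization, median centring, array weights and each array left out.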

Additional observations from a re-analysis of the deposited data

How the results depend on the processing

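With the trial number as a replicate block the count of elongases called was 1 for phenylalanine-betaxanthin against control (elo-6; the others had adjusted p from 0.0518 to 0.103) and 0 for indoline-betacyanin against indicaxanthin (adjusted p = 0.0564 for elo-1 and 0.0725 for elo-2). The block also ended the call of elo-2 for indoline-betacyanin against phenylalanine-betaxanthin (0.0585). Array weights, which gave indicaxanthin array 3 a weight of 0.0443, called 2 for indoline-betacyanin against control and 6 for phenylalanine-betaxanthin against indicaxanthin. With each array left out in turn the counts ranged from 0 to 6 (phenylalanine-betaxanthin against control), 0 to 2 (indoline-betacyanin against control), 0 to 4 (indoline-betacyanin against indicaxanthin), 3 to 7 (indoline-betacyanin against phenylalanine-betaxanthin) and 0 to 5 (phenylalanine-betaxanthin against indicaxanthin), and stayed at 0 for indicaxanthin against control. The other counts lay within 1.5 times the reported ones. Centring each array on its median moved the median of all clusters against control to 0.19 (indicaxanthin), 0.10 (phenylalanine-betaxanthin) and 0.18 (indoline-betacyanin), from 0.05, -0.05 and 0.02.

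Differences turned sign in the following cases, none of them called in the fit reported, and the cause was not tested. The block turned elo-7 with indicaxanthin to -0.035 and elo-4 with indoline-betacyanin to 0.15, both against control. Quantile normalization turned elo-1 (0.010), elo-2 (0.13) and elo-9 (0.038) with phenylalanine-betaxanthin and elo-6 (0.092) with indoline-betacyanin against control. Median centring turned elo-2 (0.046) with phenylalanine-betaxanthin and elo-6 (0.030) and elo-8 (0.091) with indoline-betacyanin. Array weights turned elo-4 (0.13), elo-7 (-0.47) and elo-8 (-0.011) for indicaxanthin against control, elo-4 (-0.51), elo-5 (-0.24) and elo-6 (-0.00937) for indoline-betacyanin against indicaxanthin, and elo-1 (-0.086) for phenylalanine-betaxanthin against indicaxanthin. With single arrays left out, the ranges that crossed 0 were, for indicaxanthin against control, elo-4 (-2.15 to 0.27), elo-7 (-0.54 to 0.70), elo-8 (-0.053 to 1.10) and elo-9 (-0.063 to 0.18). They were elo-3 (-0.62 to 0.011) for phenylalanine-betaxanthin against control. For indoline-betacyanin against indicaxanthin they were elo-4 (-0.65 to 1.76), elo-5 (-0.31 to 0.24) and elo-6 (-0.012 to 0.26), of which elo-4 was called at its lower end, without indicaxanthin array 3. For phenylalanine-betaxanthin against indicaxanthin it was elo-1 (-0.14 to 0.10). Averaging several clusters of a gene gave no value, since each elongase has 1 cluster.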
